A study of Drosophila melanogaster with 24 samples.

Results

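Whole larvae that carried a single mutant copy of the third chromosome were compared: 4 arrays of Df/+ larvae against 4 arrays of su(Hw)/+ larvae, chosen by their sample labels, which makes 8 of the 24 arrays of the series. Df/+ larvae had the deficiency Df(3R)ED5644, described as spanning su(Hw), over a wild-type Oregon R chromosome. The su(Hw)/+ larvae had the su(Hw)v mutation over the same kind of chromosome, and their mutant chromosome also carried the transposon P[CaS X/K5.3]. For a tagged line the paper writes this mutation as Df(3R)su(Hw)V and calls the background deleted for su(Hw). How far that loss reaches into neighbouring genes was not given. Both were the non-Tubby offspring of a balanced mutant stock outcrossed to Oregon R, so each represents a single stock, and the other chromosomes of the 2 stocks may differ. Whole animals were collected as soft white pre-pupae at the end of the third larval stage, in tubes of 10 or 20 larvae, and their sex was not given. Each array set RNA of 1 genotype against a pool made from 18 collections of Oregon R larvae. Cy3 labelled the mutant RNA on 2 arrays of each genotype and Cy5 on the other 2. By the methods, replicates within a genotype were biologically independent. The pool is in every ratio and drops out of the difference between the heterozygotes.

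Su(Hw) is a zinc finger protein that binds the gypsy retrotransposon and many places in the fly genome, where it takes part in the insulators that separate enhancers from promoters. A fly heterozygous for a deficiency has a single copy of each gene inside it, and transcripts of such genes are commonly lowered, although by how much differs from gene to gene. Because each heterozygote lacks functional su(Hw) from one of its chromosomes, the comparison does not ask what loss of Su(Hw) does. It asks what else separates the chromosomes: gene dose, the transposon, and the background of the stocks. Gene dose here covers the genes under the deficiency and any lost from the su(Hw)v chromosome.

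The 8 arrays held values for 9110 to 11673 of 14444 probes, and 8464 probes, covering 7154 named genes besides sequences without a symbol, had at least 3 values in both heterozygotes and were tested. The remaining 5980 were not. Differences are given throughout as Df/+ minus su(Hw)/+ on the log2 scale, on which a value of 1 is a doubling. They come from limma with Benjamini-Hochberg adjustment, and "called" means an adjusted p under 0.05. The median difference over all probes tested was -0.05. Pairs of arrays that shared both genotype and dye correlated across probes with a median r of 0.660 (0.638 to 0.751 over 4 pairs), whereas arrays of different genotype but the same dye gave 0.588 and arrays of the same genotype in opposite dyes 0.454.

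su(Hw) itself overlapped between the heterozygotes. Its log2 ratios to the pool were -0.53, -0.41, -0.31 and -0.07 on the 4 Df/+ arrays, and -0.86, -0.61, -0.42 and -0.28 on the 4 su(Hw)/+ arrays. The ranges overlapped, with a difference of 0.21 (standard error 0.25, limma's adjusted p = 0.824; exact permutation test over the 70 splits of the 8 arrays, 2-sided, p = 0.257). All 8 arrays were below the pool, whereas the null genotype that combines the mutant chromosomes, su(Hw)/Df, averaged -2.92 ± 0.56 (SD, n = 4).

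Polr2I, which encodes a small subunit of RNA polymerase II and is the gene next to su(Hw), set them apart. Its ratios were -0.77, -0.45, -0.67 and -0.94 in Df/+ larvae and 1.36, 1.05, 1.60 and 1.13 in su(Hw)/+ larvae. The pool therefore lay between the heterozygotes: every Df/+ array was below it and every su(Hw)/+ array above it. The means were -0.71 ± 0.20 in Df/+ and 1.29 ± 0.25 in su(Hw)/+ (SD, n = 4 each), a difference of -1.99 (standard error 0.19, limma's adjusted p = 0.000581), or 3.98-fold lower in Df/+. The exact permutation test gave p = 0.0286, the smallest that 4 arrays against 4 allow. Within a dye orientation the difference was -2.20 with the genotype in Cy3 and -1.79 with the genotype in Cy5. Null larvae, which have the su(Hw)v chromosome and the deficiency, were at 0.97 ± 0.30 (SD, n = 4). The paper describes a tagged line on a su(Hw)v chromosome whose transposon is named for this gene under its older name RpII15. Whether P[CaS X/K5.3] carries a copy that this probe reads was not tested. Whether the su(Hw)v chromosome keeps its own copy of Polr2I was not given.

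The white gene w, which encodes a transporter of eye pigment precursors and serves as the visible marker of many P-element constructs, was above the pool on all 8 arrays. It had 1.37, 1.15, 1.00 and 0.94 in Df/+ larvae and 0.25, 0.63, 1.02 and 0.70 in su(Hw)/+ larvae. A single su(Hw)/+ array, replicate 3, lay within the range of the Df/+ arrays. The difference of 0.47 (standard error 0.20) did not pass (limma's adjusted p = 0.407; exact permutation test, 2-sided, p = 0.0857). Null larvae were at 2.31 ± 0.28 (SD, n = 4).

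**Figure D1:**
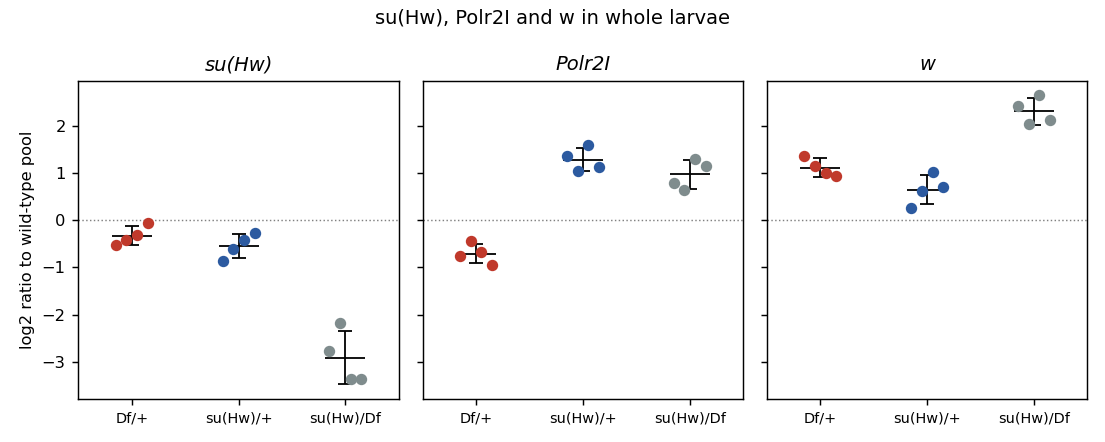
Log2 ratios to the wild-type pool (y axis) of su(Hw), Polr2I and w in whole larvae, for Df/+, su(Hw)/+ and, for reference, su(Hw)/Df. Points are single arrays, and the horizontal and vertical bars give the mean and SD of 4 arrays. For Polr2I the 4 Df/+ points lie below 0 and the 4 su(Hw)/+ points above it, whereas for su(Hw) and w the heterozygotes overlap.

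The genes around su(Hw) on chromosome arm 3R had, as a stretch, lower ratios in Df/+. Genes were taken in the order of the Release 6 annotation, and the ends of the deficiency in that order were not known. Of the 201 annotated genes from 100 before to 100 after su(Hw), 141 had a probe and 84 were tested. Of these, 57 had a difference below 0 (67.9%, against 55.5% of all genes and 56% of all probes tested), with a median of -0.21 against -0.04. Without su(Hw)/+ replicate 2 the median was -0.32, the lowest of the fits that left out a single array. Leaving out other arrays could also make the median smaller in size than with all arrays. The mean ratio to the pool was below 0 for 54 of the 84 genes in Df/+ (51.3% of all probes) and for 40 in su(Hw)/+ (44.1% of all probes). Array by array, the median ratio over these genes was -0.24, -0.32, -0.21 and -0.26 in Df/+ and 0.08, -0.15, 0.05 and -0.02 in su(Hw)/+. All 4 Df/+ arrays were lower than all 4 su(Hw)/+ arrays. Over all genes tested the array medians were 0.03, -0.04, 0.03 and -0.03 in Df/+ and 0.09, -0.06, 0.14 and 0.02 in su(Hw)/+, which overlap.

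The low values lay in the middle of that window. From rdx, 49 annotated genes before su(Hw), to His4r, 41 after it, the mean ratio of Df/+ to the pool was below 0 for each of the 37 genes tested. Just outside, Df/+ averaged 0.21 for Ipp on the side of rdx and 0.20 for CG7886 on the side of His4r, and just inside it averaged -0.999 for rdx and -0.59 for His4r. This stretch was picked by its Df/+ values, so that its low level in Df/+ is a description. Its median was -0.59 in Df/+, -0.20 in su(Hw)/+ and -0.79 in su(Hw)/Df, which also carries the deficiency. The 47 genes tested in the rest of the window had medians of 0.08 in Df/+ and 0.21 in su(Hw)/+. Within the 50 genes on either side of su(Hw), 43 genes were tested, and the median difference was -0.37. That span holds all 37 genes of the picked stretch, so its median is a description too.

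**Figure D2:**
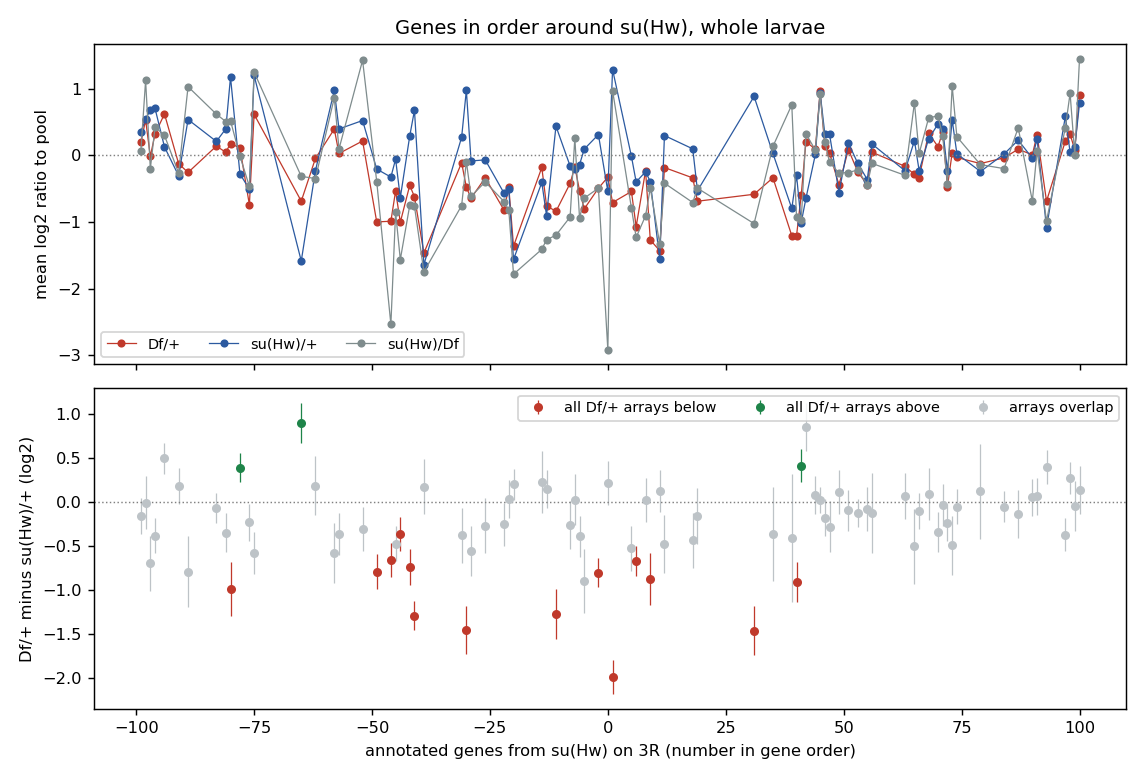
Genes tested in whole larvae within 100 annotated genes of su(Hw), in gene order along arm 3R (x axis, number of genes from su(Hw)). The upper panel gives the mean log2 ratio to the pool in Df/+, su(Hw)/+ and su(Hw)/Df, and the lower panel gives the log2 difference Df/+ minus su(Hw)/+ with its standard error. In the lower panel, red marks 14 genes with every Df/+ array below every su(Hw)/+ array and green marks 3 of the opposite kind. Of the 14, 13 lie between rdx and His4r, a stretch that was itself picked by its low Df/+ values.

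Of the 84 genes, 2 were called, Polr2I and Npc2b, both lower in Df/+, against 23 of all 8464 probes (0.272%; lower 0.177%). Npc2b, a sterol-binding protein of the Niemann-Pick C2 family that lies 41 genes before su(Hw), had -0.98, -0.35, -0.73 and -0.43 in Df/+ larvae and 0.62, 0.67, 0.66 and 0.74 in su(Hw)/+ larvae. The su(Hw)/+ arrays agreed closely and the Df/+ arrays were spread, with no overlap. The difference was -1.30 (standard error 0.16, limma's adjusted p = 0.00342), and null larvae, at -0.77, were close to Df/+. Every Df/+ array was below every su(Hw)/+ array for 14 genes of the window, and above for 3. Over all probes tested 4.93% were apart in the first way and 3.27% in the second.

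Several other genes of the stretch were apart without being called. The actin monomer binding protein gene twf had -0.13, -0.78, -0.27 and -0.74 in Df/+ and 1.33, 0.52, 1.33 and 0.71 in su(Hw)/+, a difference of -1.45 (limma's adjusted p = 0.0517). The arrays with Cy3 on the genotype, replicates 1 and 3, were the higher ones in both genotypes, and with a term for the dye twf passed (limma's adjusted p = 0.000476). The gene red, which is 2 genes from su(Hw) and named for the colour of the Malpighian tubules, had -0.40, -0.51, -0.47 and -0.59 in Df/+ and 0.06, 0.44, 0.48 and 0.26 in su(Hw)/+. Its difference was -0.80 (limma's adjusted p = 0.0576). ATPsynE, a subunit of the mitochondrial ATP synthase, was even across the Df/+ replicates, with -1.11, -1.06, -1.08 and -1.02 in Df/+ and -0.52, -0.15, -0.48 and -0.46 in su(Hw)/+, where replicate 2 stood above the other 3. Although all su(Hw)/+ arrays were higher, they too were below the pool, and the difference of -0.67 had an adjusted p of 0.141 by limma. In put, the type II receptor of the activin and BMP pathways, Df/+ averaged -1.21 ± 0.32 and su(Hw)/+ -0.30 ± 0.13 (SD, n = 4 each). In the forkhead transcription factor gene foxo, which acts downstream of insulin signalling, Df/+ averaged -0.45 ± 0.21 and su(Hw)/+ 0.29 ± 0.09 (SD, n = 4 each). Neither passed (limma's adjusted p = 0.136 and 0.19). These genes were picked after their values were seen.

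Some genes of the stretch were as low in su(Hw)/+ as in Df/+. CG9920 averaged -1.47 in Df/+ and -1.64 in su(Hw)/+, CG3199 -1.36 and -1.56, and soti, a testis gene known for its part in sperm individualization, -1.43 and -1.56, in the same order. His4r, a histone H4 gene, was higher on every Df/+ array than on every su(Hw)/+ array (means -0.59 and -1.01), and both genotypes were below the pool. Of the 37 genes, 10 had a difference of 0 or above.

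Over the whole array, the 23 called probes comprised 8 that were higher in Df/+ (0.0945% of probes tested) and 15 that were lower. At an unadjusted p under 0.05 there were 944 (11.2%). All 23 had arrays that did not overlap, as had 694 of all probes tested (8.2%). Arrays that do not overlap must keep their direction within either dye orientation, so the direction there is no separate check. Within a dye orientation the smallest difference in size was 0.73 with the genotype in Cy3 and 0.70 with the genotype in Cy5. With a dye term 53 probes were called (0.626%), 15 higher (0.177%) and 38 lower (0.449%), and they included all 23. With the replicate number, which sorts the arrays by dye as well, as a block, 40 were called, 12 higher and 28 lower, and these included 22 of the 23. After each array had been centred on its median the 17 calls were split 8 higher and 9 lower. Leaving out single arrays left fewer calls: 10, 19, 7 and 8 without Df/+ replicates 1, 2, 3 and 4, and 7, 13, 9 and 8 without su(Hw)/+ replicates 1, 2, 3 and 4.

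Of the 15 lower probes, 14 had a gene symbol. The lowest was CG13315, an uncharacterised gene of arm 3L, with -0.998, 0.07, -0.26 and -0.12 in Df/+ larvae and 1.87, 2.06, 1.62 and 2.27 in su(Hw)/+ larvae. Df/+ was near the pool on 3 arrays, and all 4 su(Hw)/+ arrays were far above it. The difference was -2.28 (standard error 0.31, limma's adjusted p = 0.005), or 4.85-fold lower in Df/+. PGRP-LA, a member of the peptidoglycan recognition family of immune genes, had -0.46, 0.00, -0.32 and 0.00 in Df/+ and 1.85, 1.48, 1.77 and 1.99 in su(Hw)/+. As with CG13315, the departure from the pool was on the side of su(Hw)/+. It was lower in Df/+ by 1.96 (standard error 0.20, limma's adjusted p = 0.000581). The cytochrome P450 gene Cyp305a1 had 0.33, 0.50 and 0.38 on the 3 Df/+ arrays with a value and 1.77, 1.70, 2.33 and 1.88 in su(Hw)/+. This difference was -1.52 (limma's adjusted p = 0.005).

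For CG13028, by contrast, Df/+ was the genotype far from the pool, with -1.02, -1.05, -1.35 and -1.13 in Df/+ and 0.35, -0.34, 0.41 and 0.47 in su(Hw)/+. Replicate 2 of su(Hw)/+ stood below the other 3, and the difference of -1.36 had an adjusted p of 0.018 by limma. The remaining named genes that were lower had differences from -1.29 to -0.89. They were CG2070, CG16704, vih, an E2 ubiquitin-conjugating enzyme of mitosis, Nup214, a nuclear pore protein, Acf, a subunit of the ACF chromatin remodelling complex, CG31274, the theta-class glutathione transferase GstT4 and the odorant-binding protein gene Obp99c. Acf, for example, averaged 0.18 ± 0.11 in Df/+ and 1.27 ± 0.30 in su(Hw)/+ (SD, n = 4 each; difference -1.09, limma's adjusted p = 0.0336). Nup214 averaged 0.29 ± 0.33 in Df/+ and 1.38 ± 0.18 in su(Hw)/+ (SD, n = 4 each; difference -1.09, limma's adjusted p = 0.0243).

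Of the 8 higher probes, 6 had a symbol. CG3397, an uncharacterised gene of arm 3R outside the window, was the clearest of them, with 2.16, 2.27, 1.97 and 2.07 in Df/+ larvae and 0.60, 0.66, 0.54 and 0.73 in su(Hw)/+ larvae. Both genotypes exceeded the pool on every array, Df/+ by far more. The difference was 1.48 (standard error 0.16, limma's adjusted p = 0.000819). Cyp12c1, a P450 of the mitochondrial CYP12 family, had 1.70, 1.79, 1.83 and 1.81 in Df/+ and 0.10, 0.78 and 0.71 on the 3 su(Hw)/+ arrays with a value. It was higher by 1.25 (limma's adjusted p = 0.0231), opposite in direction to Cyp305a1. CG15200, with values on 3 of the Df/+ arrays, averaged -0.59 ± 0.57 in Df/+ (SD, n = 3) and -2.25 ± 0.28 in su(Hw)/+ (SD, n = 4). Its difference was 1.66 (limma's adjusted p = 0.0243).

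CG14246 and CG10459, which were also higher in Df/+, lay below the pool on every su(Hw)/+ array. CG14246 averaged -0.36 ± 0.19 in Df/+ and -1.54 ± 0.27 in su(Hw)/+, and CG10459 averaged 0.21 ± 0.17 in Df/+ and -0.67 ± 0.18 in su(Hw)/+ (SD, n = 4 each). Their differences were 1.18 and 0.88 (limma's adjusted p = 0.0206 and 0.0336). Of 3 called probes with no gene symbol, the one with ID 1000031442 was higher by 1.64 (limma's adjusted p = 0.000819).

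**Figure D3:**
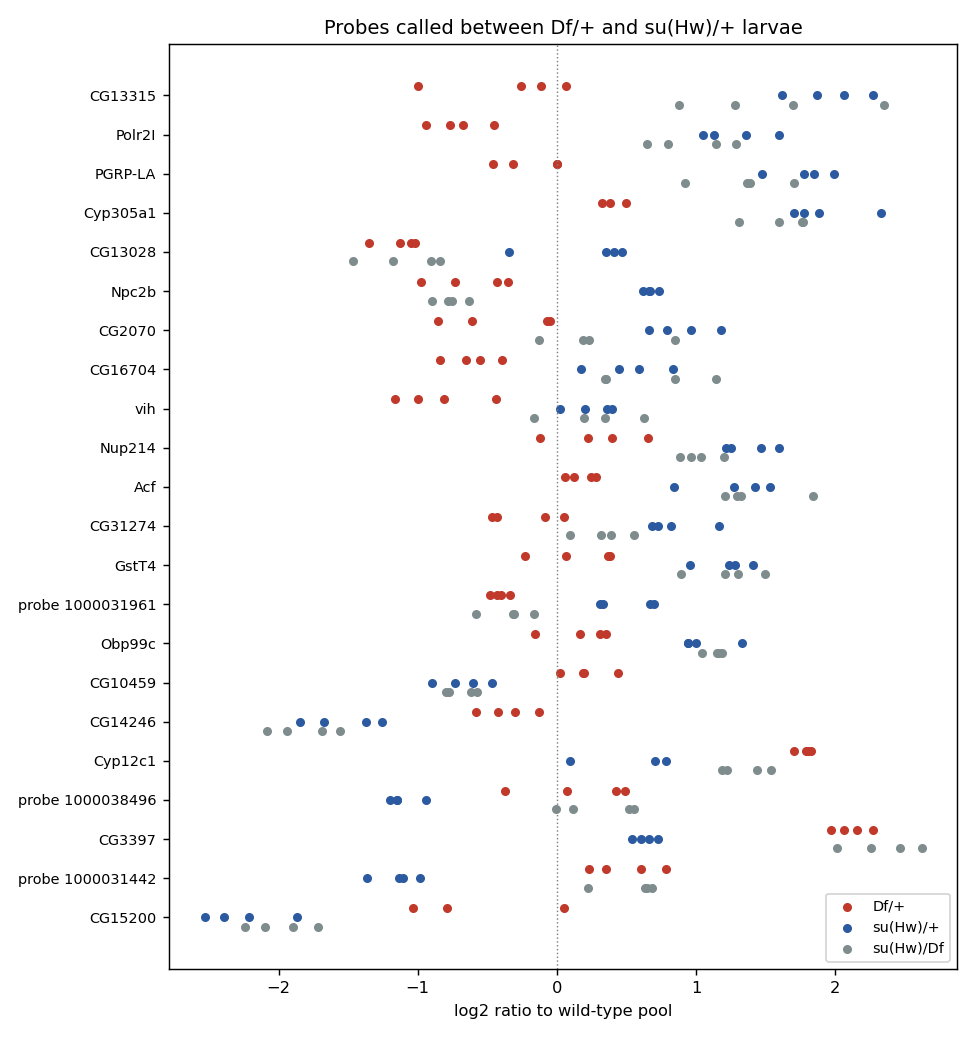
Log2 ratios to the wild-type pool (x axis) of 22 of the 23 probes called between Df/+ and su(Hw)/+ larvae, ordered from the most lowered to the most raised in Df/+. Each point is 1 array, and in each row Df/+ is drawn above su(Hw)/+, with su(Hw)/Df below both for reference. In no row do the Df/+ and su(Hw)/+ points overlap.

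For 18 of the 23 probes su(Hw)/+ was the genotype whose mean was farther from the pool, and for 5 it was Df/+. The null larvae, which carry both mutant chromosomes, were nearer to Df/+ for 7 of the 23 and nearer to su(Hw)/+ for 16, and they lay between the heterozygotes for 11. Among the genes for which they were nearer to Df/+ were Npc2b (-0.77), CG13028 (-1.10) and CG3397 (2.34). Among those nearer to su(Hw)/+ were CG13315 (1.55), PGRP-LA (1.34) and Acf (1.42). The null arrays entered the fit only through the shared estimate of the spread.

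Of the 20 called probes placed on a chromosome arm, 14 were on the third chromosome, which is the one that carries both mutations: 4 were higher and 10 lower in Df/+. That was 0.423% of the 3309 probes tested there, against 0.133% of 3009 on the second chromosome (1 higher and 3 lower) and 0.174% of 1151 on the X chromosome (1 higher and 1 lower). Arm 3L, which does not hold su(Hw), had 7 calls, as many as 3R, and 3R without the window around su(Hw) had 5 calls in 1776 probes (0.282%). The share of probes with arrays apart differed less between arms, with 8.66% on 3L, 8.95% on 3R, 8.29% on 2L, 7.57% on 2R and 8.08% on X. Leaving out 1 array left 6 to 12 calls on the third chromosome: 7, 12, 6 and 7 without Df/+ replicates 1 to 4, and 6, 11, 7 and 7 without su(Hw)/+ replicates 1 to 4.

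Of 417 tested genes in 25 lists 5 were called (1.2%, against 0.272% of all probes): Polr2I, Cyp305a1, Cyp12c1, GstT4 and Obp99c. The other 20 lists had no called member. Because the members and lists were chosen with earlier results of these data known, their share of calls is a description only. The number called was 2 without any single one of Df/+ replicates 1, 3 and 4 or su(Hw)/+ replicates 1 and 4, and 3 without any other array. The insulator proteins were 11 genes, among them su(Hw) itself and partners of Su(Hw) at the gypsy insulator. They ranged from -0.32 to 0.21, the upper value being that of su(Hw), with a median of -0.13. None was called or had an unadjusted p under 0.05. The cytosolic ribosomal proteins (34 genes), the mitochondrial ribosomal proteins (60) and the proteasome subunits (37) had medians of -0.02, -0.09 and -0.07 with no call, and at an unadjusted p under 0.05 they held 0, 4 and 1 genes. The 8 tested subunits of RNA polymerase II, Polr2I among them, had a median of -0.21, and none of the others was called. Glycolysis and trehalose metabolism (18 genes, median -0.05), ecdysone response regulators (14, -0.01), cuticle proteins (26, -0.09), eye pigment genes (10, -0.02), histones (7, 0.02) and metallothioneins (3, -0.09) likewise had no call. At an unadjusted p under 0.05, 3 of the glycolysis genes, 1 ecdysone regulator, 2 cuticle genes, 4 eye pigment genes including w, 1 histone gene and 0 metallothioneins were found.

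A ratio gives no level, so the labelled material can be checked only by which markers had enough values: 8 of 8 fat body genes, 13 of 16 muscle genes, 28 of 45 midgut genes, 9 of 15 neuronal genes and 11 of 25 testis genes did. Whole larvae mix many tissues, and fewer cells of a type and less RNA per cell cannot be told apart. Of 11 tested testis and spermatogenesis genes 11 had a difference above 0, against 44% of all probes, with a median of 0.73. An unadjusted p under 0.05 was found for 6 of them, all higher in Df/+. Over all probes 4.97% were higher at that threshold, and 11.2% passed it in either direction. None of the testis genes was called. The widest were those of Pglym87, a testis phosphoglycerate mutase, at 1.02 (limma's adjusted p = 0.229) and the sperm protein gene Mst87F at 0.90 (limma's adjusted p = 0.144). The array medians of the list were -0.47, 0.12, 0.26 and -0.36 in Df/+ and -0.72, -0.70, -0.86 and -0.39 in su(Hw)/+. Thus Df/+ replicate 1 was lower than su(Hw)/+ replicate 4, and the genotypes overlapped. The other 14 testis genes on the array lacked enough values, and 1 of the 11, Hsp60B, is also in the heat shock list. The dosage compensation RNA genes roX1 and roX2, which are expressed in males, had 0.33 and 0.40, and the yolk protein gene Yp3 had -0.53, with adjusted p from 0.706 to 0.779 by limma. The sexes of the larvae in each tube were not given, and their part in the testis values was not tested.

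Of 15 heat shock genes 11 had a difference above 0 (median 0.42), against 44% of all probes. At an unadjusted p under 0.05, 6 were higher, against 4.97% of all probes, and 1 was lower. None was called. Hsp70Ab, an inducible chaperone, had 1.52, 0.71, 2.07 and 0.65 in Df/+ and -0.56, -0.21, 0.00 and 0.02 in su(Hw)/+. All Df/+ arrays were higher, and replicates 1 and 3, with the genotype in Cy3, were the highest. The difference was 1.43 (standard error 0.32, limma's adjusted p = 0.0967). Hsp70Bbb was at 1.63 (limma's adjusted p = 0.136). The Hsp70 copies are nearly identical, so their probes cannot be read as separate genes, although the counts above hold them as separate members. With a dye term Hsp70Ab and Hsp70Ba were called. Null larvae were at 3.16 for Hsp70Ab.

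Fat body storage proteins had no call among 8 genes (median -0.23), of which 3 had a difference above 0 and 5 below. They ranged from -1.63 to 0.64, and at an unadjusted p under 0.05 1 was higher and 3 were lower. Lsp1alpha, a larval serum protein and the lowest, had 0.65, 0.46, -0.09 and 0.32 in Df/+ and 1.60, 2.29, 1.92 and 2.05 in su(Hw)/+. Every su(Hw)/+ array was the higher, with a difference of -1.63 (standard error 0.33, limma's adjusted p = 0.0576). Fbp2 was at -1.07 (limma's adjusted p = 0.102). Antimicrobial peptide and humoral immunity genes (16, median -0.30), glue and late-puff genes of the salivary gland (12, -0.41), midgut digestive enzymes (28, -0.10), muscle structural genes (13, 0.19), neuronal genes (9, 0.05) and haemocyte and crystal cell markers (9, 0.03) had no call. At an unadjusted p under 0.05 they held 3, 1, 3, 2, 2 and 1 genes in the same order. Their widest differences were those of the midgut proteases Jon99Fii at -1.41 and Jon99Fi at -1.07, with adjusted p of 0.325 and 0.348 by limma. PGRP-LA, the called immune gene described above, was not a member of the antimicrobial peptide and humoral immunity list.

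The called list members other than Polr2I lay in enzyme and carrier families. Of 38 cytochrome P450s, the oxidases that process hormones and foreign compounds, Cyp12c1 was higher and Cyp305a1 lower, with a median of -0.14. Of 20 glutathione transferases only GstT4 was called, with a median of -0.07. Of 10 odorant-binding proteins 8 had a difference below 0 (median -0.47), against 56% of all probes. The lowest member, at -0.893, was not called. Obp99c was called, with 0.35, 0.31, -0.16 and 0.17 in Df/+ and 1.33, 0.94, 1.00 and 0.94 in su(Hw)/+. All its su(Hw)/+ arrays were above all Df/+ arrays, and the difference was -0.89 (standard error 0.16, limma's adjusted p = 0.0416).

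**Figure D4:**
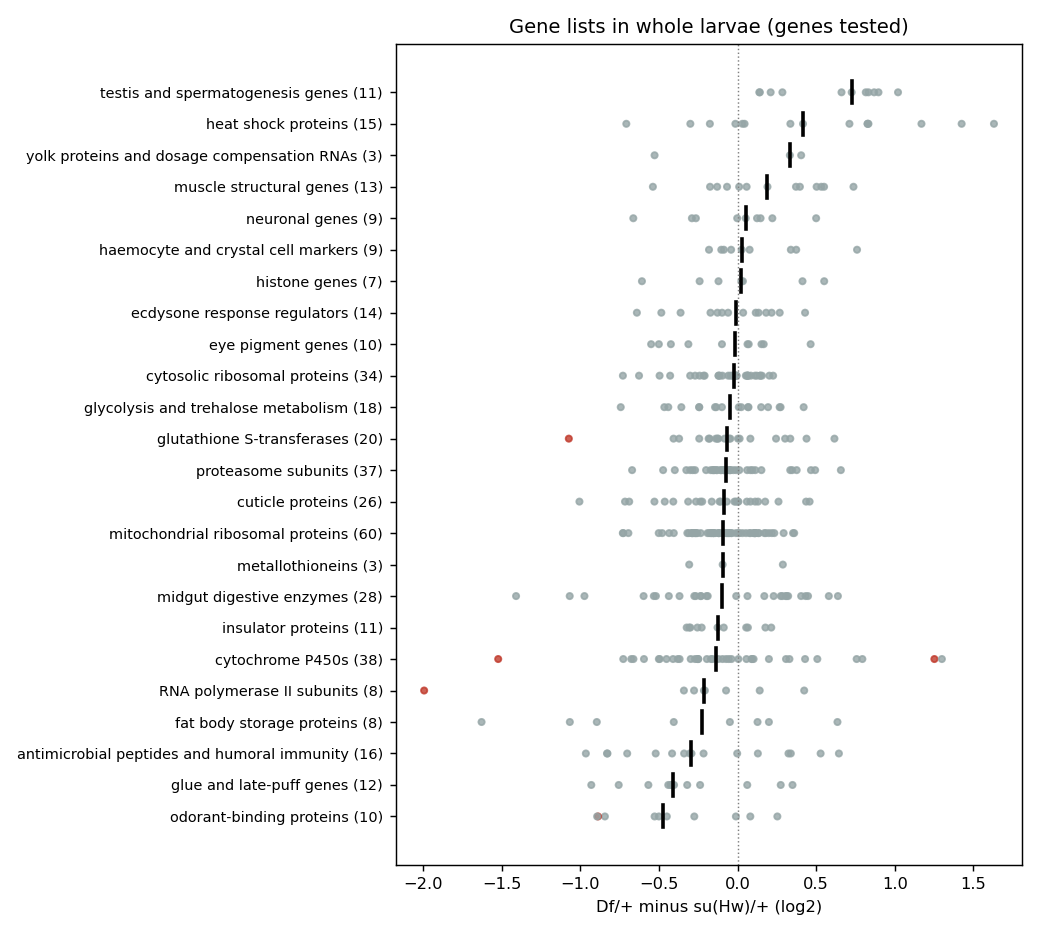
Log2 difference Df/+ minus su(Hw)/+ in whole larvae (x axis) of the genes tested in 24 lists (rows, with the number tested). Points are genes, red where called, and black bars are list medians, ordered from the highest, testis and spermatogenesis genes at 0.73, to the lowest, odorant-binding proteins at -0.47.

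RNA of the same crosses was also amplified from wing discs, 6 per extraction by the labels and more by the paper's methods. These discs were measured on other arrays and against another pool. There only Polr2I was called among 5928 probes (0.0169%), and 128 had an unadjusted p under 0.05 (2.16%). Polr2I averaged -0.64 ± 0.19 in Df/+ discs and 0.82 ± 0.19 in su(Hw)/+ discs (SD, n = 4 each), a difference of -1.46 (standard error 0.19, limma's adjusted p = 0.0117). The call was lost without Df/+ replicates 3 or 4 or su(Hw)/+ replicates 3 or 4 of the discs, each of which left 0 calls. For su(Hw) the discs gave -0.65 ± 0.46 in Df/+ and -0.36 ± 0.50 in su(Hw)/+ (SD, n = 4 each), a difference of -0.29 with an adjusted p of 0.999 by limma. For w only 2 su(Hw)/+ disc arrays had a value and it was not tested.

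The stretch around su(Hw) was low in Df/+ discs as well, on arrays that had no part in choosing it. Of its 37 genes 18 were tested in discs, and 17 of these had a disc difference below 0, with a median of -0.62. Of the 4431 genes tested in both tissues 2764 were below 0 in discs, with a median of -0.07. ATPsynE was at -1.02 (standard error 0.22), put at -0.98 (0.33), red at -0.83 (0.23), twf at -0.81 (0.27) and foxo at -0.68 (0.23), none of them called. His4r, whose Df/+ arrays were all above its su(Hw)/+ arrays in larvae, was above 0 in discs too, at 0.33 (0.28).

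Outside that stretch 11 of the probes called in larvae were tested in discs, and 8 of them had the same sign, against 49.9% of all 5376 probes tested in both tissues. An unadjusted disc p under 0.05 was found for 4 of the 8 and for 1 of the other 3, Obp99c. Acf, at -0.82 (standard error 0.25), and vih, at -0.66 (0.26), kept their direction in discs. Obp99c (0.60), GstT4 (0.25) and CG13028 (0.09) had the opposite one. No difference between tissues passed for any of the 5376 probes (limma's smallest adjusted p = 0.0753; 226, or 4.2%, had an unadjusted p under 0.05). With a dye term 3 probes passed, among them GstT4, whose larval difference was lower than its disc difference by 1.33 (limma's adjusted p = 0.041).

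**Figure D5:**
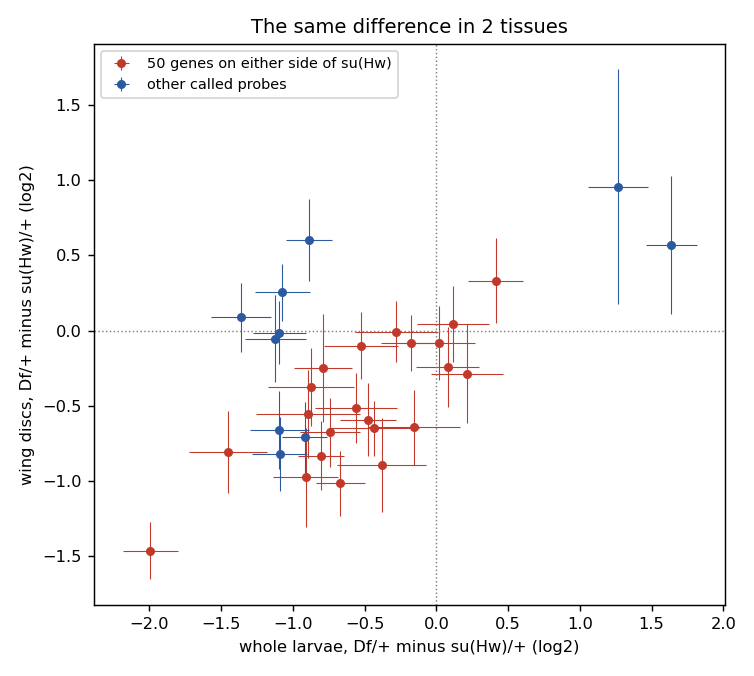
Log2 difference Df/+ minus su(Hw)/+ in whole larvae (x axis) and in wing discs (y axis), with standard errors, for genes within 50 annotated genes of su(Hw) (red) and for other probes called in larvae (blue), where both tissues were tested. Polr2I is the lowest point, at -1.99 in larvae and -1.46 in discs, and 20 of the 22 red genes lie below 0 in discs.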

How the data were processed

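RNA of whole larvae was labelled directly and hybridized by the authors to FL002 (INDAC) long-oligonucleotide arrays against a wild-type pool. Slides were scanned on an Axon scanner, spots found with Dapple, the 12 larval slides normalized together by VSN and changes tested with CyberT. No tool version was given in the sources used here. The values the authors deposited are 1 log2 ratio of genotype to pool per spot, with dye swaps already turned. Scale and direction were checked against 3913 genotype means of the study's tables, of which 3913 lay within 0.01. Intensities were not used here, so signal over background is unknown and the number of arrays limits the precision.

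Spots of a probe were averaged. Of 15158 probes, 714 controls printed in 3 or 4 spots were left out. Of 14444 analysed, 12657 had 1 gene symbol (126 from the study's tables), 96 several and 1691 none, and 12644 matched the Release 6 gene table, used for names and gene order only.

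Limma 3.58.1 (R 4.3.3) fitted 3 genotype means over all 12 larval arrays, with no dye term. Probes needed 3 values in both heterozygotes. Discs were fitted likewise, and 1 model of 24 arrays compared the tissues. A gene with several probes stood in lists by the probe with most values. Replicate numbers come from the sample titles. Deviations of same-numbered arrays from their genotype means correlated at 0.283, 0.152, 0.222 and 0.317, so the numbers were also used as a block. Same-numbered arrays share a dye orientation, and with the dye removed the correlations were -0.004, -0.025, -0.004 and -0.026.

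Named genes were su(Hw), Polr2I and w, up to 10 called genes in each direction whose arrays did not overlap, called genes of the window, up to 4 called members of each list, and up to 2 members where none was called; genes outside this rule are said to be so or serve as context. The members and lists were chosen with earlier results of these data known. The scripts were tested on simulated data. The values of 1 called gene are not reported here, although it is included in the counts.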

Additional observations from a re-analysis of the deposited data

Results flagged for a closer look

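In 11 of 149 groups of 4 arrays, formed by the genes named here in either genotype, a single array stood far from the other 3. Chance gives such a flag in about 1 group in 20. In Df/+ larvae these were Appl, replicate 2 at 0.0537 (others -0.37 to -0.31), Obp99b, replicate 2 at 0.16 (others -0.20 to -0.14), Csp, replicate 1 at -0.0872 (others -0.42 to -0.37), and Treh, replicate 3 at -0.0449 (others -0.35 to -0.31). In su(Hw)/+ larvae they were ATPsynE, replicate 2 at -0.15 (others -0.52 to -0.46), IM33, replicate 2 at 0.57 (others 0.22 to 0.27), roX1, replicate 3 at -1.98 (others -1.13 to -1.08), CG13028, replicate 2 at -0.34 (others 0.35 to 0.47), Mst87F, replicate 3 at -2.19 (others -1.42 to -1.34), Obp99c, replicate 1 at 1.33 (others 0.94 to 1.00), and Pglym87, replicate 4 at -0.39 (others -0.80 to -0.76). CG13028 and Obp99c are called genes, and in both the outlying array still lay outside the range of the Df/+ arrays.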

How the results depend on the processing

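Of the larval calls, 7 probes passed under all 16 alternative fits in which they were tested: CG13315, Polr2I, PGRP-LA, Npc2b, CG3397, Cyp305a1 and probe 1000031442. Over 22 called probes other than Polr2I, 206 of 349 values stayed past the threshold and 143 did not, and none turned direction. The 23 calls became 9 with only the 8 heterozygote arrays, 53 with a dye term, 37 with 4 values required, 41 with array weights and 40 with the replicate block (the pairing by number), and 7 to 19 without single arrays. The block changed the call of none of su(Hw), Polr2I and w. The 14 calls on the third chromosome became 7 with 8 arrays, 30 with a dye term and 23 with array weights, and 6 to 12 without single arrays. The 2 calls around su(Hw) became 5 with a dye term, 5 with 4 values required and 6 with array weights. The 5 called list members became 3 with 8 arrays, with centred arrays or with 2 values required, 9 with a dye term, and 2 to 3 without single arrays. The median around su(Hw) was -0.37 over 50 genes on either side, and -0.32 to -0.16 without single arrays. The single disc call became 2 with 8 arrays, 4 with a dye term, 3 with centred arrays, 9 with array weights and 5 with the block, and 0 to 4 without single arrays. The 0 probes that differed between tissues became 3 with a dye term. The cause of these shifts was not tested. Probes below 3 values in a genotype, 5980 in number, were not tested at all.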

Other observations

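Some changed genes were neighbours. Among the 53 probes called with a dye term, 5 pairs of genes lay within 5 annotated genes of each other on the same arm; the pairs were looked for after the values were seen and were given no test. On 2L, CG16704, CG16713 and IM33, an immune-induced peptide gene, lay together and were at -1.12, -1.19 and -1.05. CG16713 had -0.07, -0.08, -0.90 and -0.80 in Df/+ larvae and 0.80, 0.91, 0.69 and 0.52 in su(Hw)/+ larvae. On 3R the odorant-binding protein genes Obp99b and Obp99c were at -0.84 and -0.89. The pair of red and Polr2I flanks su(Hw).

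CG3397 and CG18547, 2 genes apart on 3R, moved in opposite directions, by 1.48 and -1.14. CG18547 had -0.23, 0.47, 0.02 and 0.38 in Df/+ larvae and 1.45, 0.64, 1.43 and 1.69 in su(Hw)/+ larvae, and its null larvae averaged 1.38, near su(Hw)/+. Those of CG3397 averaged 2.34, near Df/+ at 2.12. Without the dye term CG16713, IM33, Obp99b, red and CG18547 had adjusted p from 0.0576 to 0.065 by limma.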
